A study of Mus musculus with 20 samples.

Results

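The genes described here are 10 listed interferon-induced genes in the left ventricle of aging mice: Phf11b, Phf11d, Ifi27l2a, Rtp4, Shisa5, Usp18, Bst2, Lgals3bp, Parp14 and Ifi44. They were chosen by name, with earlier results of these data known, and all 10 were found among the 15956 genes of the count table and among the 13991 genes that passed the low-count filter. RNA from the heart of 20 mice was read by QuantSeq, a method that sequences the 3′ end of messenger RNA. The mice received a normal-protein diet (NP), a low-protein diet (LP), a high-fat diet with normal protein (HF) or a high-fat diet with low protein (HF + LP), with 5 mice in each group. Casein was the protein source in all 4 diets and was reduced in LP and HF + LP. The mice were males, and their strain and genotype are not given in the sources used here. Their labelled age was 18 months, whereas the methods of the study give a younger age at sacrifice. HF mice were the heaviest, with a body weight of 58.9 ± 1.76 g, followed by HF + LP mice with 48.6 ± 5.93 g, NP mice with 43.0 ± 7.82 g and LP mice with 32.6 ± 2.69 g (SD, n = 5 each), and the part of weight in the results was not tested.

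Type I interferons bind a receptor on most cell types and induce genes, many of which carry a short sequence called the interferon-stimulated response element near their start. The proteins made from these genes restrict viruses, tag other proteins with ISG15 and limit the signal that induced them. Cytosolic DNA, including DNA that leaks from mitochondria, can start this response through cGAS and STING, and the study asked whether the diets act on this route in the aging heart. In heart tissue the same genes can be expressed by cardiomyocytes, endothelial cells, fibroblasts and macrophages, and in these bulk samples fewer cells of a type and less RNA per cell cannot be told apart.

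The 10 genes lie on 8 chromosomes of the GRCm38 assembly (GENCODE M21), with Phf11b at chr14:59320964-59341351 and Phf11d at chr14:59347407-59365470 as neighbours 6055 bases apart on the minus strand. The others are Ifi27l2a (chr12:103442167-103443680), Rtp4 (chr16:23520291-23614222), Shisa5 (chr9:109038565-109057777), Usp18 (chr6:121245906-121270917), Bst2 (chr8:71534255-71537456), Lgals3bp (chr11:118392751-118402092), Parp14 (chr16:35832874-35871544) and Ifi44 (chr3:151730922-151749960). All are annotated as protein-coding. Rtp4, Usp18 and Parp14 overlap other annotated genes, which were not analysed here. The Phf11 genes are related copies that share stretches of sequence: of the 75-base windows in the last 500 bases of their transcripts, 28.9% in Phf11b and 14.1% in Phf11d also occurred in another Phf11 gene, so that the split of reads between the copies is uncertain. None of the windows of the other 8 genes occurred in a transcript of another gene.

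Promoter sequence was not itself used to choose the genes. They were listed as interferon-induced, however, and many such genes carry the interferon-stimulated response element, so matches are no independent test. RefSeq promoters (250 bases before and 50 after each annotated start, GRCm38.p6) were matched for 6 of the 10 genes, namely Phf11b, Phf11d, Shisa5, Bst2, Lgals3bp and Ifi44. Ifi27l2a, Rtp4, Usp18 and Parp14 had no entry. The core of the interferon-stimulated response element was searched as GAAANNGAAA, on both strands. It occurred in the promoters of Phf11b, Bst2 and Shisa5, against 3.99% of the 27025 genes of the promoter table. In Phf11b the match began 50 bases before the start and in Bst2 a pair of overlapping matches began 130 and 124 bases before it, whereas in Shisa5 it lay 33 bases after 1 of its annotated starts. The longer form GAAANNGAAACT, found in 0.303% of genes, occurred in Phf11b and Bst2, and the same 12 letters as in Phf11b stood 29 bases before the start of the neighbouring copy Phf11a. Phf11d and Ifi44 held a form with a spacer of 1 base, GAAANGAAA, which occurred in 3.70% of genes and was added after the first search. The palindrome TTCNNNGAA, which was also searched, occurred in Shisa5 and Bst2, against 9.55% of genes. A match is a description of letters and not of binding. The 250 bases before the start are shown for the 4 genes in which a match lay before or across the start, 5′ to 3′ on the strand of the gene, with the letters matched by the GAAA forms in capitals and those of the palindrome not marked. In Phf11d the match runs across the start, and its part before the start is shown.
Phf11b, chr14:59341331-59341580, minus strand: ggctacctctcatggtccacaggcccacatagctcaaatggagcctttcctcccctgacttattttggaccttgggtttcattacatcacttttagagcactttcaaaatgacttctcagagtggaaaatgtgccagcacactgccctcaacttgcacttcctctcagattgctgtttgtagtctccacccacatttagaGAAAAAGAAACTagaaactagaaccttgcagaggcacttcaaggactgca
Bst2, chr8:71537473-71537722, minus strand: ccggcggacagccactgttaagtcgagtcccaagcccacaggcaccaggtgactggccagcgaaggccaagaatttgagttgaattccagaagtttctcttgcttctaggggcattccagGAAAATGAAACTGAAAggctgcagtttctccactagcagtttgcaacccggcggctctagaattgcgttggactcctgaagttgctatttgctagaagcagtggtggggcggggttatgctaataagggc
Phf11d, chr14:59365491-59365740, minus strand: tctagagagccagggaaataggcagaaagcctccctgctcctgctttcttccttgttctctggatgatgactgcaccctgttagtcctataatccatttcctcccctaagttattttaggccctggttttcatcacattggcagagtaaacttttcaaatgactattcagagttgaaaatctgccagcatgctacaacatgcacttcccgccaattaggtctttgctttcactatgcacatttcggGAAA
Ifi44, chr3:151749911-151750160, minus strand: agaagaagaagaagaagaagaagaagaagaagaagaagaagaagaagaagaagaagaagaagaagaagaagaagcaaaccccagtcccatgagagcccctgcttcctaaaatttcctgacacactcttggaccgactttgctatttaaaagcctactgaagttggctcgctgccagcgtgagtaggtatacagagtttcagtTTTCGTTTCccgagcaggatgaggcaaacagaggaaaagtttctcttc

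The mean level of each of the 10 genes was highest in HF. Among the other 3 diets the means of Ifi44 ran from 132 normalized counts in LP to 229 in NP. Levels are given as normalized counts, that is, counts scaled by the TMM method to the mean library size of 16969475. Differences are log2 fold changes with standard error (SE) from edgeR's quasi-likelihood fit of all 20 libraries. The library totals lay between 12559607 and 23331907, and mitochondrially encoded genes took 38.1% to 39.8% of the counts in HF, which was less than in any NP library (41.3% to 47.1%), against 38.5% to 47.2% in HF + LP and 35.4% to 44.5% in LP. The part of this share in the results was not tested. The library of LP animal 13 stood apart, with a median correlation of 0.908 to the other LP libraries against 0.944 to 0.979 for the other 19 libraries, and the medians of the 10 genes in the comparisons that use LP are given with and without it. Same-group libraries differed by more than counting noise in every pair, so each was counted as a separate mouse.

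**Figure D1:**
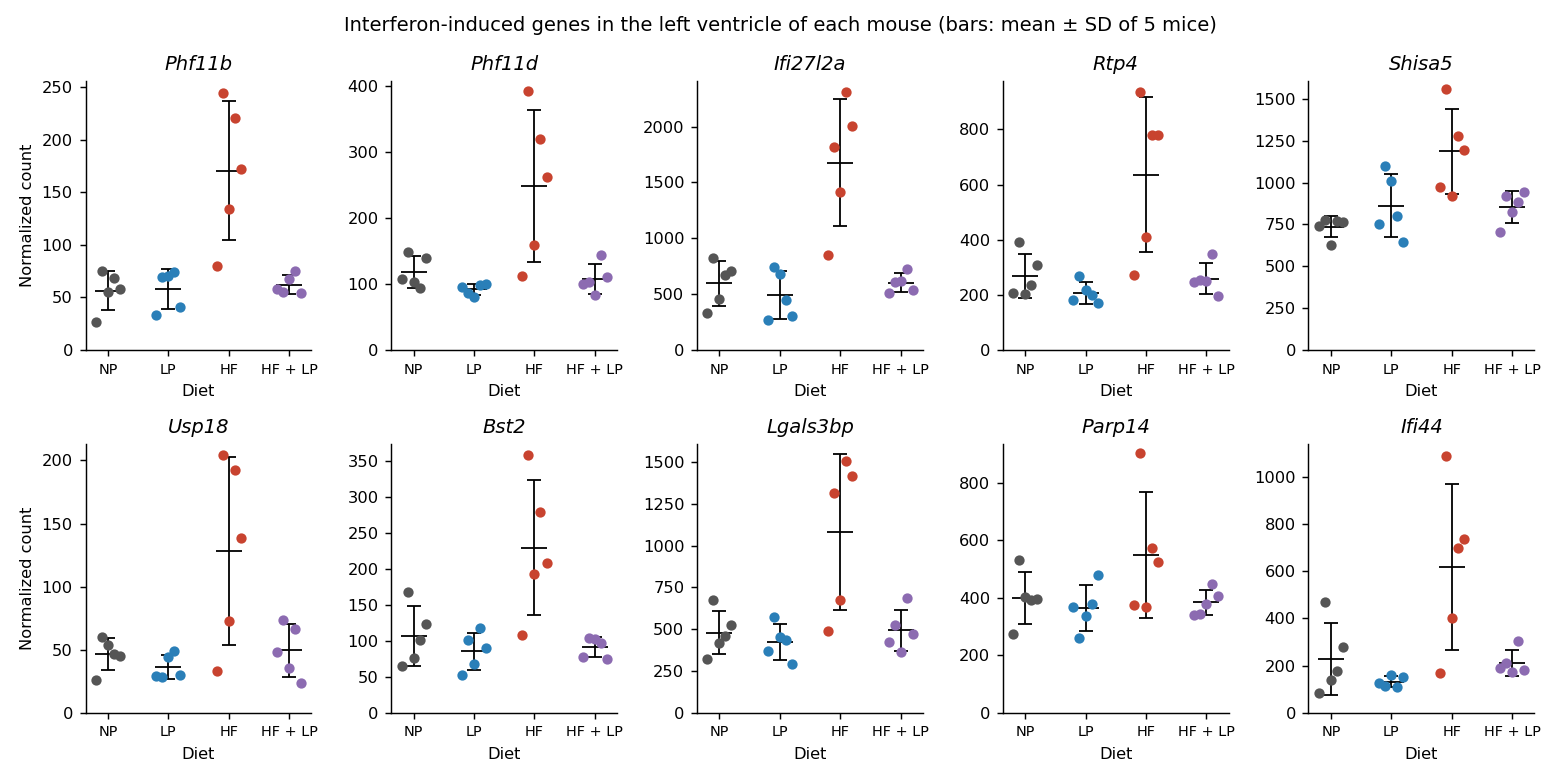
Normalized count (linear axes from 0) of each of the 10 genes by diet; each point is 1 mouse and the bars are the mean ± SD of 5 mice. The HF points are spread widely, from 33.1 to 204 for Usp18, and the HF + LP points overlap those of NP for every gene. For Shisa5, however, HF + LP animals 2 to 5 (919, 824, 887 and 942) lie above the highest NP mouse (779).

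Usp18 removes ISG15 from proteins and blocks the interferon receptor from within, and so ends the response that induces it. Its normalized count was 53.9, 26.3, 60.3, 46.5 and 45.2 in NP animals 3, 4, 5, 6 and 8 and 33.1, 204, 72.5, 193 and 139 in HF animals 1 to 5. It was 29.3, 29.7, 28.3, 49.2 and 43.8 in LP animals 2, 5, 13, 15 and 20 and 47.9, 73.7, 35.2, 66.1 and 23.7 in HF + LP animals 1 to 5. All HF mice but animal 1 exceeded every NP mouse, and HF animal 1 lay among the NP values. Its fitted difference was 1.47 ± 0.39 in HF against NP and -1.38 ± 0.38 in HF + LP against HF.

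Phf11b and Phf11d encode proteins with a PHD finger, a zinc-binding fold found in chromatin proteins. Phf11b was at 55.0, 26.3, 74.7, 68.8 and 57.7 normalized counts in NP animals 3, 4, 5, 6 and 8 and at 80.1, 245, 134, 221 and 173 in HF animals 1 to 5. In LP animals 2, 5, 13, 15 and 20 Phf11b was at 33.3, 41.0, 69.8, 74.4 and 70.3 and in HF + LP animals 1 to 5 at 58.3, 55.6, 67.5, 75 and 54.7. The lowest HF mouse was above the highest mouse of each other diet, so the HF group did not overlap any of them. The difference was 1.59 ± 0.29 in HF against NP, a 3.01-fold level, and -1.45 ± 0.29 in HF + LP against HF.

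Phf11d had a mean of 249 ± 115 normalized counts in HF, against 119 ± 24.1 in NP, 108 ± 22.7 in HF + LP and 92.4 ± 8.4 in LP (SD, n = 5 each). Its HF values were 112, 393, 159, 320 and 262 in animals 1 to 5, and animal 1 lay inside the NP range of 93.8 to 148. The difference was 1.07 ± 0.25 in HF against NP and -1.21 ± 0.25 in HF + LP against HF. Because reads can be assigned to the wrong copy, the 4 Phf11 genes were also summed, which gave 492 ± 211 in HF, against 219 ± 44.6 in NP, 202 ± 29.1 in HF + LP and 191 ± 18.7 in LP (SD, n = 5 each). The sum showed the same order of HF mice, from 228 in animal 1 to 752 in animal 2.

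Ifi27l2a belongs to the family of Ifi27, small hydrophobic interferon-induced proteins, several of which are found at mitochondria or the nuclear envelope. Its normalized count was 457, 332, 826, 670 and 703 in NP animals 3, 4, 5, 6 and 8 and 848, 1813, 1416, 2306 and 2006 in HF animals 1 to 5. In LP animals 2, 5, 13, 15 and 20 it was 271, 306, 746, 450 and 682 and in HF + LP animals 1 to 5 it was 511, 611, 619, 727 and 536. As for Phf11b, the HF group did not overlap any other diet, although HF animal 1 exceeded NP animal 5 by a narrow margin. The difference was 1.49 ± 0.30 in HF against NP and -1.48 ± 0.29 in HF + LP against HF.

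Bst2, or tetherin, holds budding virus particles at the cell surface. Bst2 was at 75.9, 64.4, 168, 101 and 123 normalized counts in NP animals 3, 4, 5, 6 and 8 and at 108, 358, 193, 279 and 209 in HF animals 1 to 5. In LP animals 2, 5, 13, 15 and 20 it was at 51.9, 89.2, 101, 117 and 67.4 and in HF + LP animals 1 to 5 at 77.1, 104, 103, 96.3 and 75.3. The HF and HF + LP groups did not overlap, whereas NP animals 5 and 8 exceeded the lowest HF mouse. HF stood at a 2.16-fold level of NP, and the difference was -1.33 ± 0.29 in HF + LP against HF.

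Ifi44 encodes an interferon-induced protein that restricts the growth of infected cells. Ifi44 was at 138, 82.3, 469, 176 and 279 normalized counts in NP animals 3, 4, 5, 6 and 8 and at 167, 1091, 402, 700 and 736 in HF animals 1 to 5. In LP animals 2, 5, 13, 15 and 20 it was at 128, 150, 111, 108 and 161 and in HF + LP animals 1 to 5 at 190, 209, 173, 304 and 180. NP animal 5 exceeded HF animals 1 and 3, and every HF + LP mouse was above every LP mouse. The difference was 1.44 ± 0.41 in HF against NP and -1.55 ± 0.41 in HF + LP against HF.

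Rtp4 encodes a receptor transporter protein, of a family that helps certain receptors reach the cell surface. Rtp4 was at 201, 205, 391, 237 and 310 normalized counts in NP animals 3, 4, 5, 6 and 8 and at 273, 937, 410, 781 and 779 in HF animals 1 to 5. It lay between 169 and 270 in LP and between 196 and 348 in HF + LP. All HF mice but animal 1 were above the other 3 diets. The difference was 1.25 ± 0.27 in HF against NP and -1.30 ± 0.27 in HF + LP against HF.

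Lgals3bp encodes a secreted glycoprotein that binds galectin-3. Its normalized count was 489, 1318, 677, 1508 and 1419 in HF animals 1 to 5, against 322 to 673 in NP, 291 to 576 in LP and 363 to 688 in HF + LP. The values of HF animals 2, 4 and 5 stood far above the rest, and animal 3 was just above the highest NP mouse. The difference was 1.17 ± 0.28 in HF against NP and -1.13 ± 0.28 in HF + LP against HF.

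Parp14, an ADP-ribosyltransferase, and Shisa5, a membrane protein of the endoplasmic reticulum that is also a target of p53, had the smallest differences of the 10 genes. Parp14 was at 374, 903, 367, 571 and 524 normalized counts in HF animals 1 to 5 against 274 to 532 in NP, with a difference of 0.46 ± 0.22, and only HF animals 2 and 4 exceeded NP. Shisa5 was at 976, 1560, 922, 1281 and 1192 in HF animals 1 to 5 against 628 to 779 in NP, with a difference of 0.69 ± 0.15. Every HF mouse was thus above every NP mouse for Shisa5, but LP animals 13 and 20, at 1101 and 1012, and HF + LP animal 5, at 942, reached the HF range. In HF + LP against HF the difference was -0.51 ± 0.22 for Parp14 and -0.47 ± 0.15 for Shisa5. The values of Parp14 rested on HF animal 2, without which they were 0.21 in HF against NP and -0.26 in HF + LP against HF.

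Over the 10 genes, the median difference in HF against NP was 1.21, with a range of 0.46 to 1.59, against -0.00 over all 13991 genes. The groups did not overlap for 3 of the 10 genes, Phf11b, Ifi27l2a and Shisa5, against 2.07% of all genes that were higher in every HF mouse. A gene was called changed at an adjusted p under 0.01 (Benjamini-Hochberg over all genes tested) with a mean normalized count over 50. Phf11b was the member called, against 0.264% of all genes, and that call was lost in 14 of the 20 fits that left out 1 mouse, whereas DESeq2 called 7 members and 159 genes in all. This contrast was known when the genes were chosen, so these values describe the genes and nothing is read from the counts.

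In HF + LP against HF, the 10 genes were all at a lower level, with a median of -1.31 and a range of -1.55 to -0.47, against 0.02 over all genes. Phf11b, Ifi27l2a and Bst2 were lower in every HF + LP mouse than in any HF mouse, against 0.636% of all genes. No member was called with edgeR, and neither was any other gene (0%), whereas DESeq2 called 5 members and 13 genes in all. The same HF mice enter both contrasts, and both were known when the genes were chosen. The difference between the fat effect at low and at normal protein was negative for all 10 genes, with a median of -0.94 and a range of -1.495 for Phf11b to -0.38 for Parp14 (-0.13 without HF animal 2), and no gene of the table was called for it with edgeR (0%), whereas DESeq2 called 1 gene and no member. Its median was -0.85 without LP animal 13.

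**Figure D2:**
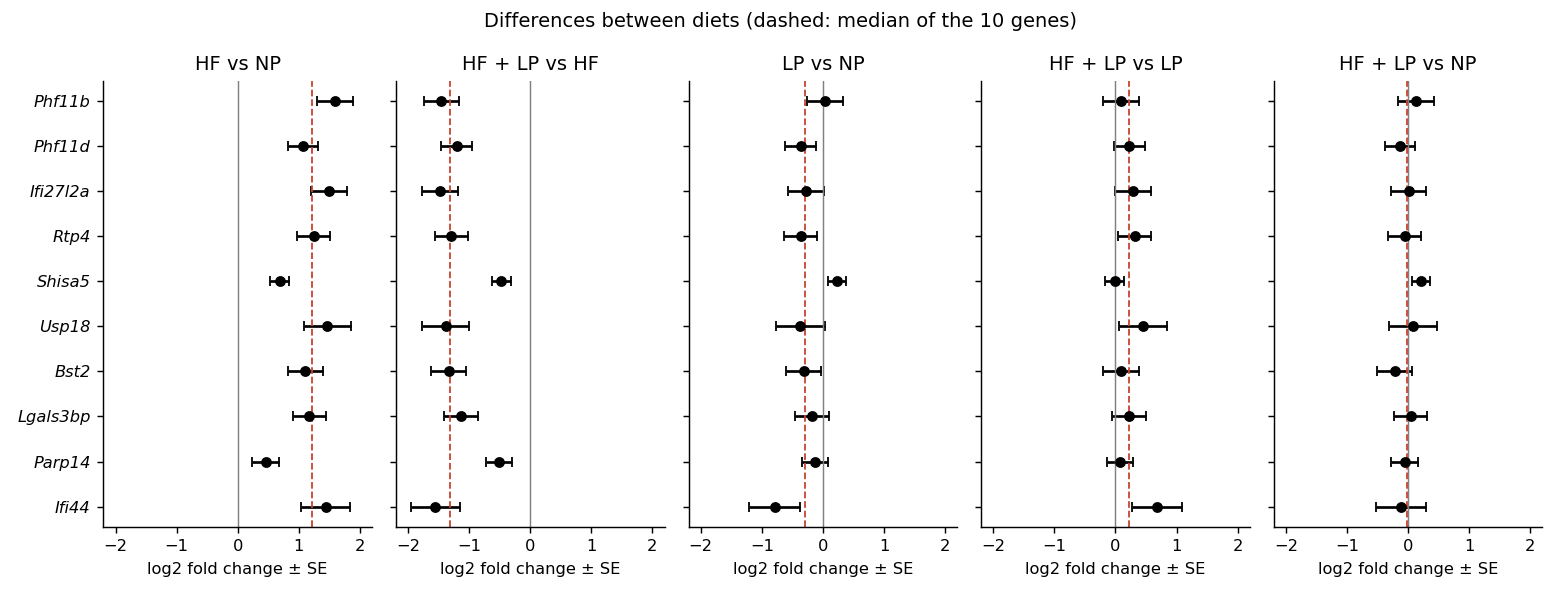
Log2 fold change with SE (x axis) of the 10 genes (y axis) in 5 comparisons; the dashed line is the median of the 10 genes. The medians are 1.21 in HF against NP and -1.31 in HF + LP against HF, and lie between -0.30 and 0.22 in the other 3 comparisons.

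The remaining comparisons ask whether protein restriction without high fat, or high fat at low protein, moved the same genes. They are sums and differences of the contrasts above, which were known when the genes were chosen, so their values describe the 10 genes and are no independent test, and nothing is read from the counts. In LP against NP, 8 of the 10 genes were lower and Phf11b and Shisa5 higher, with a median of -0.30 against 0.02 over all genes. No member was called with edgeR (0% of all genes), and 0 of 10 had an unadjusted p under 0.05, against 7.23% of all genes. The groups overlapped for every member (no overlap in 0.786% of all genes). The difference farthest from 0 was that of Ifi44, at -0.79 ± 0.41 (95% interval -1.65 to 0.07), and it was -0.36 without NP animal 5. The median was -0.33 without LP animal 13, -0.27 without LP animal 20, -0.16 without LP animal 2 and -0.12 without NP animal 5.

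In HF + LP against LP, 9 of the 10 genes were higher, with a median of 0.22 against -0.03 over all genes. None was called with edgeR, against 0.1% of all genes, and 0 of 10 had an unadjusted p under 0.05, against 15.9%. Ifi44 differed by 0.68 ± 0.41 (95% interval -0.18 to 1.54) and was the 1 member whose groups did not overlap, against 1.87% of all genes. The 95% intervals of the other 9 genes all included 0 and ran from -0.51 to 1.28. The median was 0.27 without LP animal 13, 0.20 without LP animal 20 and 0.09 without HF + LP animal 4.

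The differences of HF + LP from NP ran from -0.22 for Bst2 (-0.0036 without NP animal 5) to 0.21 for Shisa5, with a median of -0.02, and 5 genes were on each side of 0. The median was -0.14 without NP animal 4, with 1 gene higher, 0.17 without NP animal 5, with 8 genes higher, and -0.11 without HF + LP animal 4, with 2 genes higher. No member was called with edgeR, against 0.0286% of all genes, none had an unadjusted p under 0.05, against 8.77%, and no member's groups were without overlap, against 2.57%. DESeq2 also called 0 members in each of these 3 comparisons. The 95% intervals were wide, from -0.96 to 0.74 for Ifi44 and from -0.10 to 0.53 for Shisa5, and differences within these limits cannot be told from none.

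The 10 genes moved together from mouse to mouse. HF animal 2 had the highest HF level of 8 genes and HF animal 4 that of the other two, Ifi27l2a and Lgals3bp, and both animals exceeded every NP mouse for all 10 genes. HF animal 1 had the lowest HF level of 8 genes and lay within the NP range for 7. In NP, animal 5 was highest for all 10 genes and animal 4 lowest for 7, and in HF + LP animal 4 was highest for 7. The mean of the 10 genes, each centred on its own mean over the 20 mice, ran from -0.12 to 1.54 on the log2 scale in HF, with a mean of 0.87 ± 0.68 (SD, n = 5), against -0.23 ± 0.42 in NP, -0.45 ± 0.20 in LP and -0.19 ± 0.21 in HF + LP. The lowest mice of NP (animal 4, -0.80), LP (animal 2, -0.72) and HF (animal 1, -0.12) all had a library name with the number 1. The lowest HF + LP mouse (animal 5, -0.37) had the number 3, and the highest LP mouse (animal 13, -0.30) the number 1. What this number means is not stated in the sources used here, and its part in the spread between mice was not tested.

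**Figure D3:**
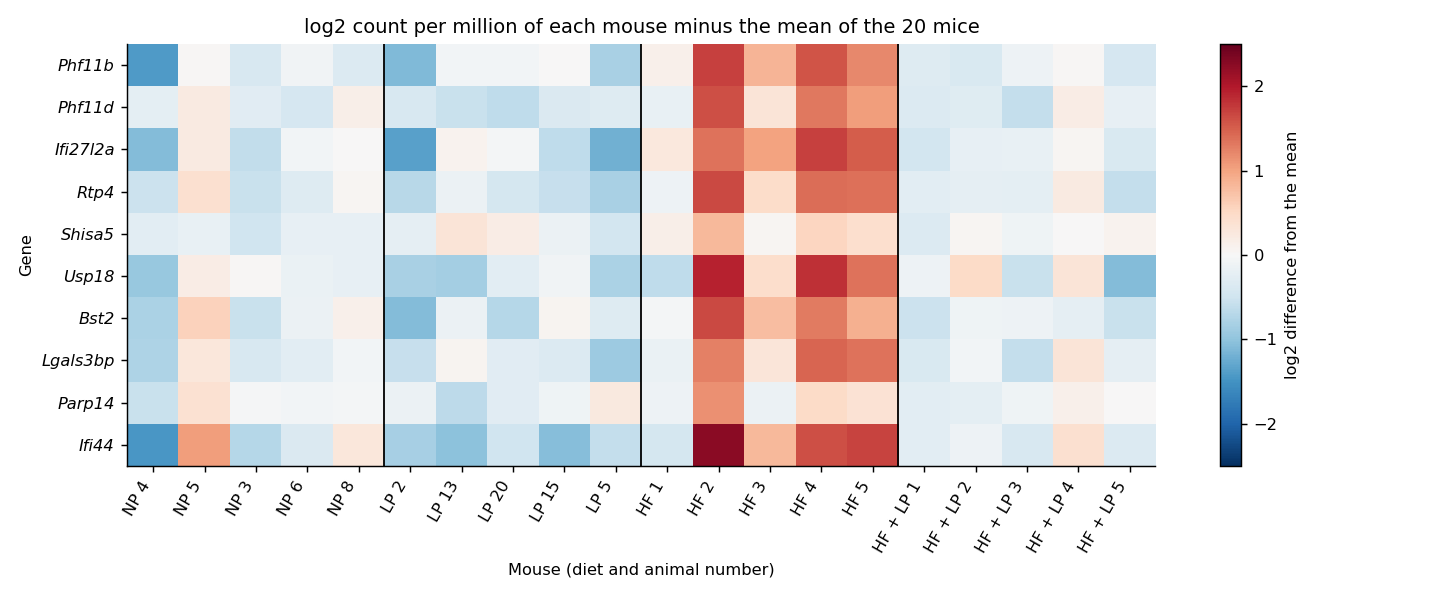
Log2 CPM of each of the 10 genes (rows) in each mouse (columns, diet and animal number) minus the mean over the 20 mice; red is above and blue below the mean. HF animals 2, 4 and 5 are red throughout, HF animal 1 resembles the NP mice, and NP animal 5 is the highest of its group for all 10 genes.

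The spread within a diet was also widest in HF. The median over the 10 genes of the within-group SD of log2 values was 0.69 in HF, 0.42 in NP, 0.34 in LP and 0.25 in HF + LP, whereas the median over all genes was 0.21, 0.20, 0.28 and 0.24 in the same order. After each diet mean was subtracted, the 45 pairs of genes had a median Pearson r of 0.71 over the 20 mice, and 37 pairs were above 0.5. The highest r was 0.92, between Rtp4 and Lgals3bp, followed by 0.89 between Phf11b and Ifi27l2a, and the lowest was 0.24 between Shisa5 and Parp14. These values share libraries and depth and are given as a description. With the HF mice left out, the r of a gene with the mean of the other 9 over the remaining 15 mice was 0.84 for Rtp4 and Lgals3bp, 0.78 for Phf11b, Ifi27l2a and Ifi44, 0.74 for Bst2, 0.57 for Usp18, 0.46 for Phf11d, 0.37 for Parp14 and 0.35 for Shisa5. Genes outside the list whose deviations were most like the mean of the 10 genes were Rnf213 (r = 0.95), Irf7 (0.93), Irf9 (0.92), Oas2, Oasl2 and Ifi213 (0.91 each), Ifit3 (0.89), Stat2 (0.88), Znfx1 (0.87) and Isg15 (0.86). The median r with that mean was 0.00 over the same 10159 genes.

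Several family members and protein partners of the 10 genes were measured, and 16 of 26 listed partners passed the low-count filter. In HF against NP, 14 of the 16 were higher, with a median of 0.53, and none was called with edgeR, against 0.264% of all genes. Isg15, the tag that Usp18 removes, differed by 1.34 ± 0.40, Ube2l6, which attaches it, by 0.98 ± 0.36, Herc6, its ligase in mice, by 0.51 ± 0.34, and Uba7, its activating enzyme, by -0.00 ± 0.22. Lgals3, the galectin that Lgals3bp binds, differed by 1.19 ± 0.41, and in LP against NP by 1.01 ± 0.41 (adjusted p = 0.635, edgeR), or 0.40 ± 0.34 without LP animal 13, where it was highest. Parp9 and its partner Dtx3l differed by 0.68 ± 0.24 and 0.72 ± 0.20, against 0.19 ± 0.18 for Parp10, 0.35 ± 0.19 for Parp11 and 0.36 ± 0.17 for Parp12. The values for Uba7 and Parp10 were thus the nearest to 0 in their groups, and the differences between these genes were not tested.

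Of the other copies, Ifi27 was at 1079.8 ± 330 normalized counts in HF, against 611 ± 36.6 in NP, 714 ± 88.0 in HF + LP and 991 ± 653 in LP (SD, n = 5 each). The highest LP mouse, at 2125, was above the highest HF mouse, at 1485, and was animal 13, whose library stood apart. LP against NP differed by 0.70 ± 0.29 (adjusted p = 0.634, edgeR), or 0.21 ± 0.19 without that mouse. Phf11c was at 38.9 ± 9.96 in NP, 57.1 ± 25.4 in HF and 28.7 ± 6.6 in HF + LP. Phf11a, Ifi27l2b and Setdb2 were too low to be tested. Phf11a was at 14.9 ± 6.0 in HF, against 4.5 ± 1.4 in NP, 3.5 ± 1.8 in HF + LP and 5.5 ± 2.2 in LP, and the highest LP mouse, at 9.43, was above the lowest HF mouse, at 8.73. Ifi27l2b was at 11.6 ± 4.2 in HF, against 2.5 ± 2.1 in NP, 3.5 ± 1.6 in HF + LP and 3.3 ± 2.9 in LP. Setdb2 was not highest in HF, at 7.8 ± 4.6, against 8.3 ± 5.3 in HF + LP, 8.0 ± 6.2 in LP and 4.8 ± 3.5 in NP. Among the relatives of Shisa5 and Rtp4, Shisa2 differed by 0.16 ± 0.92, Shisa3 by 0.75 ± 0.31, Shisa4 by -0.08 ± 0.22 and Rtp3 by 0.14 ± 0.34 in HF against NP. Shisa3 also differed by 0.91 ± 0.31 in LP against NP (adjusted p = 0.530, edgeR) and by 1.09 ± 0.31 in HF + LP against NP (adjusted p = 0.236, edgeR). Shisa2 differed by 1.73 ± 0.85 in LP against NP (adjusted p = 0.695, edgeR) and by -2.02 ± 0.86 in HF + LP against LP (adjusted p = 0.258, edgeR). Without LP animal 13, again the highest LP mouse, these differences were 1.1 ± 0.87 and -1.41 ± 0.88. In LP against NP, HF + LP against LP and HF + LP against NP none of the 16 partners was called with edgeR. Phf11, Ifi27l1, Rtp1, Rtp2, Usp41, Parp15 and Ifi44l were not analysed here.

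The medians of the genes upstream were nearer to 0 than that of the 10 genes. Because the 10 genes were chosen with these contrasts known, this order is a description and nothing is read from it. Of 18 genes for interferon receptors and their signaling, 12 were higher and 6 lower in HF against NP, with a median of 0.09, and 14 were lower in HF + LP against HF, with a median of -0.13. Irf7, a transcription factor that amplifies interferon production, differed by 1.88 ± 0.45 and -2.25 ± 0.46, and Irf9 by 0.82 ± 0.20 and -0.94 ± 0.21. Ifnar2, a chain of the type I receptor, differed by 0.35 ± 0.11 in HF against NP and Ifnlr1, a receptor chain for lambda interferons, by -0.59 ± 0.25. The 9 listed negative regulators, which include Usp18 and Isg15, were all higher in HF against NP, with a median of 0.33, and among them Socs3, a brake on JAK and STAT signaling, differed by 0.71 ± 0.36. No receptor, signaling or regulator gene was called with edgeR in any of the 6 contrasts. Genes for the interferons themselves were not analysed here.

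Of 67 other tested interferon-induced genes, all 67 were higher in HF than in NP, with a median of 0.76, and 66 were lower in HF + LP than in HF, with a median of -0.78. None was called in either contrast with edgeR, against 0.264% and 0% of all genes. The genes with the smallest p in HF against NP were Ddx58, the RNA sensor RIG-I, which differed by 0.92 ± 0.20, and Ifi208, Rsad2, Irgm1 and Ms4a4c, which differed by 1.45 ± 0.33, 1.31 ± 0.30, 0.86 ± 0.20 and 2.10 ± 0.49. In LP against NP, HF + LP against LP and HF + LP against NP the medians of the 67 genes were -0.08, 0.07 and -0.04, and none was called with edgeR.

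**Figure D4:**
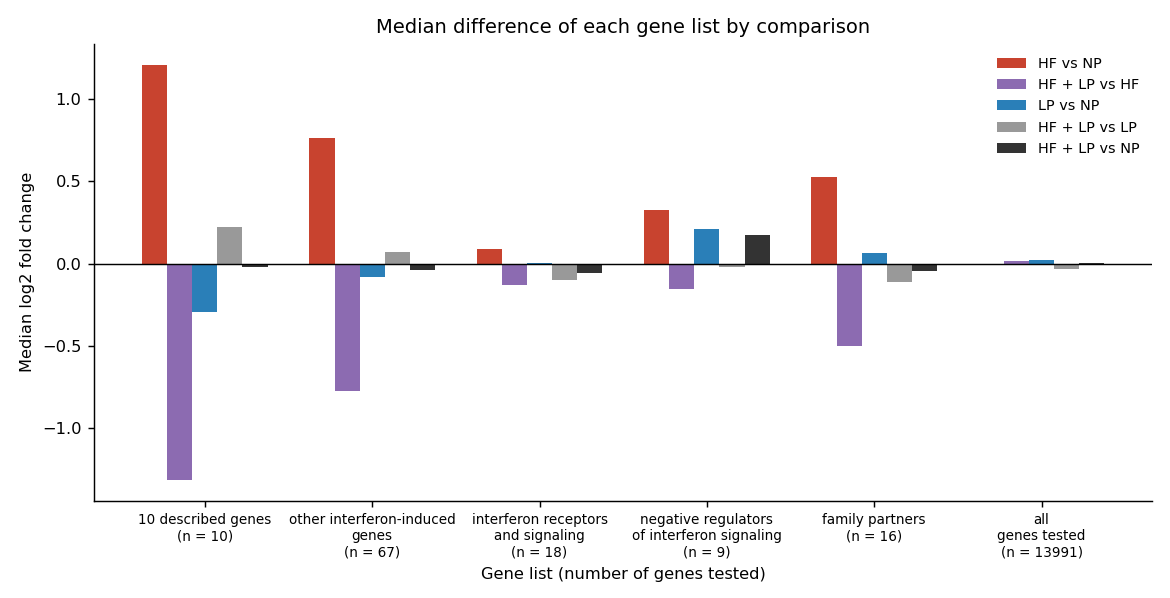
Median log2 fold change (y axis, from the fit of all 20 libraries) of each gene list in 5 comparisons, with the number of genes tested under each list. The 10 described genes stand at 1.21 and -1.31, the 67 other interferon-induced genes at 0.76 and -0.78, and the receptor and signaling genes at 0.09 and -0.13 in HF against NP and HF + LP against HF. The 10 genes were chosen with both contrasts known, so the lists are set side by side as a description only.

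Markers of other cell types were read in the same libraries. The 20 macrophage and monocyte markers were all higher in HF than in NP, with a median of 0.51. Ctss, the protease cathepsin S, was the one called with edgeR, against 0.264% of all genes. The summed level of the 20 markers was 604 to 757 CPM (counts scaled to a common library total) in HF, against 430 to 529 in NP, 458 to 578 in HF + LP and 331 to 748 in LP. In HF animal 1, whose levels of the 10 genes lay largely within the NP range, that sum was 604 and thus above every NP mouse, and in HF animal 2 it was 757. The 4 atrial markers summed to 12051 CPM in HF animal 1 and 4343 in HF animal 3, the HF animals with the lowest levels of the 10 genes, against 111 to 190 in the other 3 HF animals, while in NP they were highest, at 3560, in animal 5. In the low-protein diets they reached 14483 CPM in LP animal 13, the library that stood apart, 5157 in LP animal 15 and 5134 in HF + LP animal 3. Neutrophil markers summed to 4.1 CPM in HF animal 1 and 12.7 to 17.3 in the other HF mice, against 4.3 to 9.8 in NP, 5.9 to 16.6 in HF + LP and 5.5 to 22 in LP. They were thus above the NP range also in 3 of the 5 HF + LP mice. The part of macrophages, neutrophils and atrial tissue in the levels of the 10 genes was not tested.

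Plasmacytoid dendritic cells, which are known for making type I interferon, were at a trace: their markers other than Cox6a2, which heart muscle also expresses, summed to 4.5 to 8.9 CPM in NP, 4.7 to 7.6 in HF and 2.0 to 7.3 in HF + LP, and Ccr9 was at 0 in 7 libraries. T and NK cell markers summed to 2.3 to 3.9 CPM in NP and 2.7 to 4.9 in HF. B cell markers summed to 7.2 to 28.3 CPM in NP and 6.9 to 16.8 in HF. The highest T and NK, B cell and plasmacytoid marker sums, at 270, 166 and 108 CPM, were in LP, in animal 20. Within the plasmacytoid list the markers differed, as Ccr9 reached 1615 counts in a library and Siglech at most 31, so its sum is no measure of these cells. Endothelial markers summed to 1282 to 1674 CPM in NP and 1233 to 2078 in HF, erythroid markers to 3583 to 10504 and 6022 to 13171, and adipocyte markers to 1.3 to 44.5 and 0.4 to 63.8, with 272 CPM in LP animal 13 and 128 in LP animal 20. Of the 10 endothelial markers 9 were higher in HF than in NP, with a median of 0.18, and 7 lower in HF + LP than in HF, with a median of -0.06. The 7 fibroblast markers were all higher in HF than in NP, with a median of 0.19, and all lower in HF + LP than in HF, with a median of -0.29. Their sum was 1070 to 1380 CPM in HF, against 955 to 1164 in NP, 908 to 1162 in HF + LP and 886 to 1302 in LP. The 8 cardiomyocyte markers were all lower in HF than in NP, with a median of -0.19, and 7 of the 8 were higher in HF + LP than in HF, with a median of 0.17. Their sum was 38666 to 48923 CPM in HF, against 47696 to 56333 in NP, 37848 to 54540 in HF + LP and 35096 to 52659 in LP. The part of endothelial, fibroblast and cardiomyocyte RNA in the levels of the 10 genes was not tested.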

How the data were processed

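Left-ventricular RNA of 20 mice (4 diets, 5 mice each) was measured by 3′ QuantSeq, with 75-base reads on a NextSeq 500. The deposited counts are whole numbers of reads per Ensembl gene, which the authors made with the BlueBee alignment software; the submitters' processing notes name GRCm38 and DESeq2 1.22.2, and the annotation is not given in the sources used here. The lowest row total in the table was 60 counts. Groups and animal numbers came from the sample titles.

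The genes and gene lists were chosen with earlier results of these data known. Besides the 10 genes, all listed family partners (those too low for a test by level) and the 10 genes with the most similar pattern (mean normalized count over 50) were named. Of any other list at most 5 genes were named, chosen among those of small p except for the plasmacytoid markers. HF against NP, HF + LP against HF and the interaction were known at that choice, and the other 3 comparisons are sums and differences of these, so the values of the 10 genes are a description: no p of a single gene among them is printed, and counts of calls and of unadjusted p under 0.05 are no test. Phf11b, Bst2, Rtp4 and Ifi44 also stand among genes that the study displayed from these mice.

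Counts were fitted with edgeR 4.0.16 (R 4.3.3; TMM, low-count filter by group, quasi-likelihood F test, Benjamini-Hochberg over 13991 genes), with all groups in 1 model. Per-mouse log2 values used a prior count of 2. A gene was called at an adjusted p under 0.01 with a mean normalized count over 50. The fit was checked on simulated counts. Mice shared cages, and which mice did so is not given in the sources used here, so p values measure only the spread between these mice. Animal numbers shared between diets belong to different mice: deviations of same-numbered HF and HF + LP mice correlated at -0.55 to 0.48, so numbers were not treated as pairs. Alternatives were DESeq2 1.42.0, other size factors, filters and thresholds, a block for the animal number, a covariate for the number (1 to 3) that each library name carries, and each mouse left out. Promoters came from RefSeq and gene positions and transcripts from GENCODE.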

Additional observations from a re-analysis of the deposited data

Results flagged for a closer look

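Shisa5 in NP had 1 mouse apart from the other 4: NP animal 3 was at 628 normalized counts, and the gap to the next mouse was 0.776 of the range of the group on the log2 scale, over the critical value of Dixon's test for 5 samples. Of the 40 combinations of gene and diet examined, 1 was marked in this way, and chance marks about 1 in 20.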

How the results depend on the processing

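The number of the 10 genes called in HF against NP, 1, depended on the processing: it was 7 with DESeq2, 5 with DESeq2 on only the groups compared (added after seeing the data), 6 at an adjusted p under 0.05, 0 with only the groups compared, 0 with the animal number as a block, and 0 to 4 when 1 mouse was left out, with 4 without HF animal 1 and 2 without LP animal 13. In HF + LP against HF it was 0, against 5 with DESeq2 in either model and 0 in every fit without 1 mouse. All genes called in HF against NP numbered 37, against 159 with DESeq2, 390 with DESeq2 and 61 with edgeR on only the groups compared, 157 at an adjusted p under 0.05 and 2 with the block. They numbered 13 and 24 in HF + LP against HF with DESeq2 on all and on only the groups compared. In LP against NP, HF + LP against LP and HF + LP against NP no member was called under any setting. The medians in HF against NP (1.08 to 1.40 without 1 mouse) and in HF + LP against HF kept their direction under all settings. The cause of these differences was not tested.

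With the animal number as a block, which does not pair mice and leaves 7 residual degrees of freedom, the median was -0.74 in LP against NP, 0.90 in HF + LP against LP and -0.33 for the interaction. In HF + LP against LP all 10 genes were then higher, and 4 of 10 had an unadjusted p under 0.05, with none called (edgeR). Signs reversed for differences near 0. With the block they were -0.58 for Phf11b and -0.22 for Shisa5 in LP against NP, 0.48 for Shisa5 in HF + LP against LP, and 0.081 for Rtp4 and 0.22 for Ifi44 in HF + LP against NP. With the library number as covariate, HF + LP against LP gave -0.011 for Phf11b, -0.035 for Bst2 and -0.00059 for Parp14. The median of the 10 genes was then 0.13 in HF + LP against LP, with 6 genes higher, and -0.14 in LP against NP. When 1 mouse was left out, LP against NP ran from -0.14 to 0.18 for Phf11b. HF + LP against LP ran from -0.039 to 0.19 for Phf11b, -0.034 to 0.22 for Bst2, -0.037 to 0.20 for Parp14 and -0.10 to 0.086 for Shisa5. HF + LP against NP ran from -0.042 to 0.25 for Phf11b, -0.14 to 0.15 for Ifi27l2a, -0.18 to 0.12 for Rtp4, -0.11 to 0.26 for Usp18, -0.10 to 0.19 for Lgals3bp, -0.16 to 0.069 for Parp14 and -0.33 to 0.32 for Ifi44. The promoter motif was found in 3 genes, in 4 with 1 letter fewer (9.76% of genes), in 2 in the longer form and in 2 with the spacing of 1 base.

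With 5 mice a diet and counts down to 22 in a library for Phf11b and Usp18, the intervals of these differences were wide, and a difference within them was not detectable here.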
